A study of Homo sapiens with 4 samples.

Results

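The receptors of the BMP, activin and TGF-β family were followed as transcripts in NCIH838 cells, an established human line of non–small cell lung cancer, at day 3 after MIB1 disruption was induced. The 10 genes were taken by name from the deposited tables of 58302 genes: the type I receptors ACVR1, BMPR1A, ACVR1B and TGFBR1, the type II receptors BMPR2, ACVR2A, ACVR2B and TGFBR2, and the type III receptors TGFBR3 and ENG. The remaining family receptors, ACVRL1, BMPR1B, ACVR1C and AMHR2, serve only to complete the type I and type II sums. The cells, called MIB1-iKO, carried an all-in-one piggyBac construct with a guide RNA against MIB1, a puromycin marker and Cas9 under a doxycycline (Dox)-inducible promoter, and the MIB1-iKO lines of the study were grown from single cells. MIB1 encodes Mind Bomb 1, an E3 ubiquitin ligase. RNA-seq was performed on 2 samples without Dox and on 2 samples given 0.5 μg/mL Dox. All 4 samples, the controls included, carried the construct, and none of them received Dox without it, so an effect of Dox or of Cas9 itself and the loss of MIB1 cannot be told apart. The labels name neither the clone nor the guide, and do not say whether replicates were separate cultures. For RNA-seq of these cells at the same Dox dose and day, the study describes 2 biological replicates per condition. How these differed from each other is not stated, and p-values measure only the spread between these samples.

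A ligand of this family brings together type II and type I receptors, which are serine/threonine kinases. The type II receptor phosphorylates the type I receptor, and the type I receptor phosphorylates receptor SMADs: SMAD1, SMAD5 and SMAD9 downstream of BMP type I receptors, SMAD2 and SMAD3 downstream of activin and TGF-β type I receptors. BMPR2 is dedicated to BMP and related GDF ligands, TGFBR2 to TGF-β, and ACVR2A and ACVR2B serve activins as well as BMPs. TGFBR3 (betaglycan) and ENG (endoglin) bind ligand without a kinase domain of their own, and ENG is best known from endothelial cells.

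The total counts lay between 15943025 and 24398411, lower in both Dox libraries, and 23529 to 24223 genes had at least 1 read. MIB1 transcripts were lower in both Dox libraries, with a log2 fold change of -2.58 (SE 0.23, adjusted p = 0.000375 in limma), in the direction of the labels. The cells had the transcripts of the epithelial markers KRT18, KRT7, KRT8, EPCAM and CDH1, of which CDH1 was the lowest at 3.01 to 4.07 RPKM (reads scaled by gene length and depth), while KRT19 was listed at 0. The summed RPKM of the 6 epithelial markers was 116 and 125 without Dox and 103 and 107 with Dox. The 5 endothelial markers summed to between 0.0536 and 0.151 RPKM, and KDR was at 0. Of the 6 fibroblast markers, 4 had at most 10 reads in every library and COL1A2 was at 0, but LUM had 73 to 143 reads and COL1A1 22 to 89. Of the 5 blood markers, PTPRC, CD68 and CD79A were at 0, whereas CD14 had 128 to 185 reads. Whether the counting lost reads of genes listed at 0 is not known, so these zeros are no measure of absence. The 6 fibroblast and the 5 blood markers summed to between 2.04 and 2.60 RPKM and between 4.23 and 4.45 RPKM.

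The cells held transcripts of type I and type II receptors for BMPs, activins and TGF-β. TGFBR3 stood far above the other members. TGFBR2, TGFBR1, ACVR2A, ACVR1 and BMPR2 formed a middle group, BMPR1A, ACVR1B and ACVR2B were low, and ENG was at 1 to 6 reads in a library.

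**Figure D1:**
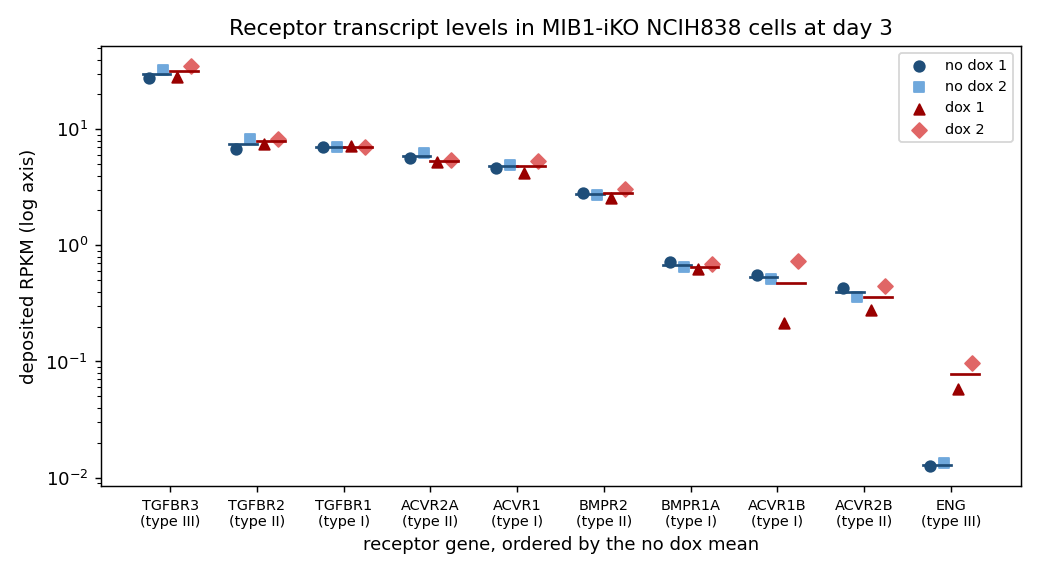
Deposited RPKM of the 10 receptor genes (y axis, log scale) in each of the 4 libraries, ordered from left to right by the mean of the 2 no dox libraries. Horizontal lines are group means (n = 2 each). TGFBR3 lies near 30.3 RPKM and ENG near 0.0129 RPKM without Dox, and the points of a gene lie close together except for ACVR1B, whose dox replicate 1 is low, and ENG.

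The transcription start regions of 4 members are shown because these genes carry the levels described: TGFBR3 the highest, ENG the lowest, and ACVR1 and BMPR2 the BMP receptors on which the study centers. Each sequence is the 250 bases before the start in RefSeq (GRCh38.p14), given 5′ to 3′ on the strand of the gene, with CG dinucleotides (CpG) in capitals.
BMPR2, chr2:202376077-202376326, plus strand: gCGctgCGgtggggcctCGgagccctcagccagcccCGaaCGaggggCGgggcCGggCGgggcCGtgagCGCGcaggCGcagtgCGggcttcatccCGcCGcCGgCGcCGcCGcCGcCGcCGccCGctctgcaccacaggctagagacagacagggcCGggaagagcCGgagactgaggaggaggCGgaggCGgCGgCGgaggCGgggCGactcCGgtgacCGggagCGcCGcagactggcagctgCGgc
ACVR1, chr2:157876331-157876580, minus strand: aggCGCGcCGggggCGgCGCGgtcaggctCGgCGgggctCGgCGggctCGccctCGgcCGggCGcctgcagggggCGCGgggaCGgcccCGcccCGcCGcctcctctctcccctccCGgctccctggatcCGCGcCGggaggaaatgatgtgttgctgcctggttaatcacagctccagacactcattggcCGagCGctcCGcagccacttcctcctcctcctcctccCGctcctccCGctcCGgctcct
TGFBR3, chr1:91886152-91886401, minus strand: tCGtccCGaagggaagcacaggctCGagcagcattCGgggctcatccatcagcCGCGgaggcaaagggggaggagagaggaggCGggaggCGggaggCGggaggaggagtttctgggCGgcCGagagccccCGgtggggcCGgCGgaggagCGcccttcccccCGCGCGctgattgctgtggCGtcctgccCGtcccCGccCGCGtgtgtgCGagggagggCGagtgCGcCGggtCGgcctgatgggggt
ENG, chr9:127854659-127854908, minus strand: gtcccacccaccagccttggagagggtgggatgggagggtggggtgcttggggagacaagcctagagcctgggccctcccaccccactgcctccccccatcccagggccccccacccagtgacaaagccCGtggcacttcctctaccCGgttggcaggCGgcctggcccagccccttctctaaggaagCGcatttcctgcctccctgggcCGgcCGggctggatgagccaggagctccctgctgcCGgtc
All 10 members were matched to a start region in the RefSeq table. BMPR2 held 36 CpG, ACVR1 30, TGFBR3 28 and ENG 7, against a median of 11 over 35116 start regions of the same length. The ratio of observed to expected CpG was 0.93 for BMPR2, 0.87 for ACVR1, 0.87 for TGFBR3 and 0.23 for ENG. Of the 10 members, 9 had a ratio of at least 0.6, which 47.5% of all start regions reached, and ENG was the exception. ACVR1B, which was low, held the most CpG of the 10 members, 48, while TGFBR2, in the middle group, held 12. The GC-rich letters GGCGCC, which read the same on both strands and are known from BMP-responsive elements, occurred before BMPR2, ACVR1 and ACVR1B and before 16.4% of all starts. For BMPR1A the nearest start in the table lay 856 bases from that of its principal transcript. These are matches of letters and not measurements of binding or methylation.

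TGFBR3 (ENSG00000069702, chromosome 1, 91680343 to 91906335, minus strand of GRCh38) presents TGF-β to TGFBR2 and also binds inhibin. Its read counts were 4607 and 5036 (no Dox) against 3026 and 4490 (Dox). These gave 27.9 and 32.7 RPKM without Dox and 28.2 and 35.2 RPKM with Dox, so the groups overlapped. TGFBR3 alone made up 49.2% and 51.5% of the summed RPKM of the 10 members without Dox and 50.4% and 52.96% with Dox. It stood 3.77 to 4.23 times above TGFBR2, the next gene, in the 4 libraries, and 83.5% of the 16181 genes tested had a lower RPKM without Dox. ENG (ENSG00000106991, chromosome 9, 127815013 to 127854658, minus strand), the other type III receptor, had 1 and 1 reads (no Dox) against 3 and 6 (Dox). Its RPKM values were 0.0125 and 0.0134 in the absence and 0.0577 and 0.0971 in the presence of Dox. Both no dox libraries thus lay below the Dox libraries, but at or under 6 reads. The ratio of ENG in CPM (counts scaled to a common library total), Dox over no Dox, was 6.22, with an exact 95% interval from 1.29 to 59.2 that covers counting error only. ENG did not pass the filter on low counts. In the fit without that filter its log2 fold change was 1.79 (SE 0.58, unadjusted p = 0.0338 and adjusted p = 0.613 in limma). An antisense RNA on the opposite strand shares 8.15% of the exon bases of ENG, and no source states that strand was used in counting.

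Among the type I receptors, TGFBR1 and ACVR1 took nearly all of the deposited RPKM. Per kilobase of summed exons, TGFBR1, ACVR1 and BMPR1A stood at 5.83, 1.72 and 0.757 CPM in the no dox mean. Per kilobase of coding sequence they stood at 29.2, 11.0 and 4.78 CPM. TGFBR1 (ENSG00000106799, chromosome 9, 99104038 to 99154192, plus strand), the kinase of the TGF-β branch, had 1091 and 1027 reads (no Dox) against 720 and 843 (Dox). Its RPKM values were 7.02 and 7.09 in the absence and 7.14 and 7.03 in the presence of Dox, the narrowest spread of the 10 members, with the highest library 1.02 times the lowest. ACVR1 (ENSG00000115170, chromosome 2, 157736251 to 157876330, minus strand), a BMP type I receptor, lay at 4.69 and 4.89 RPKM without Dox and at 4.22 and 5.37 RPKM with Dox. The Dox libraries lay on either side of the no dox libraries. BMPR1A (ENSG00000107779, chromosome 10, 86756596 to 86932825, plus strand), the other BMP type I receptor with transcripts in these cells, lay at 0.715 and 0.645 RPKM without Dox and at 0.624 and 0.686 RPKM with Dox. Its read counts were 189 and 159 (no Dox) against 107 and 140 (Dox), and again the groups overlapped. By deposited RPKM ACVR1 stood 6.56 to 7.83 times above BMPR1A in the 4 libraries, but by the mean of the no dox libraries the ratio was 2.27 per kilobase of summed exons and 2.31 per kilobase of coding sequence. The processed pseudogenes BMPR1AP1 and BMPR1AP2, on chromosomes 6 and 11, resemble BMPR1A, so part of its reads could have been divided among them.

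ACVR1B (ENSG00000135503, chromosome 12, 51951699 to 51997078, plus strand), the activin type I receptor, had 73 and 62 reads (no Dox) against 18 and 74 (Dox). Its RPKM values were 0.559 and 0.510 in the absence and 0.212 and 0.735 in the presence of Dox. The lowest and the highest library were thus both Dox libraries. The 18 reads of dox replicate 1 have an exact Poisson 95% interval of 10.7 to 28.4 reads, or 0.669 to 1.78 CPM, and the 74 reads of dox replicate 2 one of 58.1 to 92.9 reads, or 3.41 to 5.45 CPM. These intervals cover counting error only, and the libraries differ by more than that over all genes: the chi-square per degree of freedom was 13.1 between the Dox replicates and 9.34 between the no dox replicates. The fibroblast marker COL1A1 followed a like pattern, with 89 and 82 reads (no Dox) against 22 and 83 (Dox). LUM, the other fibroblast marker tested, went the other way between the Dox replicates, at 2.31 RPKM in dox replicate 1 and 1.34 in dox replicate 2. The remaining 4 had at most 10 reads in every library. The 6 fibroblast markers together summed to 2.60 and 2.43 RPKM in the absence and 2.57 and 2.04 RPKM in the presence of Dox. The part of these markers in the values of ACVR1B was not tested.

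Of the type II receptors, TGFBR2 and ACVR2A were the most abundant, in an order that depended on the gene length used, and BMPR2 came next. TGFBR2 (ENSG00000163513, chromosome 3, 30606601 to 30694142, plus strand), which binds TGF-β and activates TGFBR1, had 755 and 849 reads (no Dox) against 536 and 710 (Dox). Its RPKM values were 6.83 and 8.25 in the absence and 7.48 and 8.33 in the presence of Dox. ACVR2A (ENSG00000121989, chromosome 2, 147844517 to 147930826, plus strand), shared by activins and BMPs, had 758 and 787 reads (no Dox) against 453 and 569 (Dox). At 5.63 and 6.27 RPKM without Dox and 5.19 and 5.48 RPKM with Dox, ACVR2A was the only member tested whose groups did not overlap in RPKM, which 38.6% of the genes tested also showed. Exons on the opposite strand overlap ACVR2A, among them 431 bases of ORC4, or 6.68% of its exon bases. BMPR2 (ENSG00000204217, chromosome 2, 202376327 to 202567751, plus strand) lay at 2.85 and 2.73 RPKM without Dox and at 2.55 and 3.09 RPKM with Dox. As for ACVR1, the no dox libraries lay between the Dox libraries. ACVR2A stood 1.77 to 2.30 times and TGFBR2 2.40 to 3.02 times above BMPR2 in the 4 libraries. ACVR2B (ENSG00000114739, chromosome 3, 38453890 to 38493142, plus strand), the close relative of ACVR2A, had 120 and 93 reads (no Dox) against 50 and 96 (Dox). Its RPKM values were 0.432 and 0.359 in the absence and 0.278 and 0.448 in the presence of Dox, 12.2 to 18.7 times below those of ACVR2A. In the no dox mean ACVR2B lay 17.8 times below ACVR2A per kilobase of summed exons and 7.31 times below it per kilobase of coding sequence.

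The remaining receptors of the family were at the edge of detection. ACVRL1, the BMP9 and BMP10 receptor of endothelial cells, had at most 5 reads in a library, BMPR1B at most 2, the nodal receptor ACVR1C at most 7, and AMHR2, the receptor of anti-Müllerian hormone, at most 6. None of them passed the filter on low counts. At these depths 0 reads allow up to 3 reads, which correspond to 0.123 to 0.188 CPM.

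The order of the members by RPKM without Dox was TGFBR3, TGFBR2, TGFBR1, ACVR2A, ACVR1, BMPR2, BMPR1A, ACVR1B, ACVR2B and ENG. Neighbors were taken as apart when all 4 libraries gave the same order and the ranges did not overlap. Of the 9 pairs of neighbors, 5 were apart: TGFBR3 above TGFBR2, TGFBR1 above ACVR2A, ACVR1 above BMPR2, BMPR2 above BMPR1A, and ACVR2B above ENG. TGFBR2 and TGFBR1 were not, and neither were ACVR2A and ACVR1, BMPR1A and ACVR1B, or ACVR1B and ACVR2B. The Dox libraries gave the same order of means. ACVR1 stood 1.65 to 1.79 times above BMPR2.

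The position of ACVR1 in this order rested on the length assigned to the gene. RPKM divides reads by the length of a gene model, and the model behind the deposited RPKM of ACVR1 was only 0.346 times as long as the 9842 exon bases of GENCODE release 44, on a scale known only up to a factor common to all genes, on which the other 9 members lay between 0.661 and 1.08. Per kilobase of summed GENCODE exons, BMPR2 (2.55 CPM per kilobase) lay above ACVR1 (1.72) in the mean of the no dox libraries. Per kilobase of coding sequence, where 3114 bases of BMPR2 stand against 1531 of ACVR1, the values were 10.2 and 11.0, close to each other. TGFBR3 kept the first and ENG the last place under all 3 lengths. TGFBR1 and ACVR2A moved above TGFBR2 under both alternatives. ACVR2A and TGFBR2 stood at 5.29 and 5.18 CPM per kilobase of summed exons and at 22.1 and 19.98 CPM per kilobase of coding sequence. ACVR2B moved above ACVR1B per kilobase of coding sequence only.

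**Figure D2:**
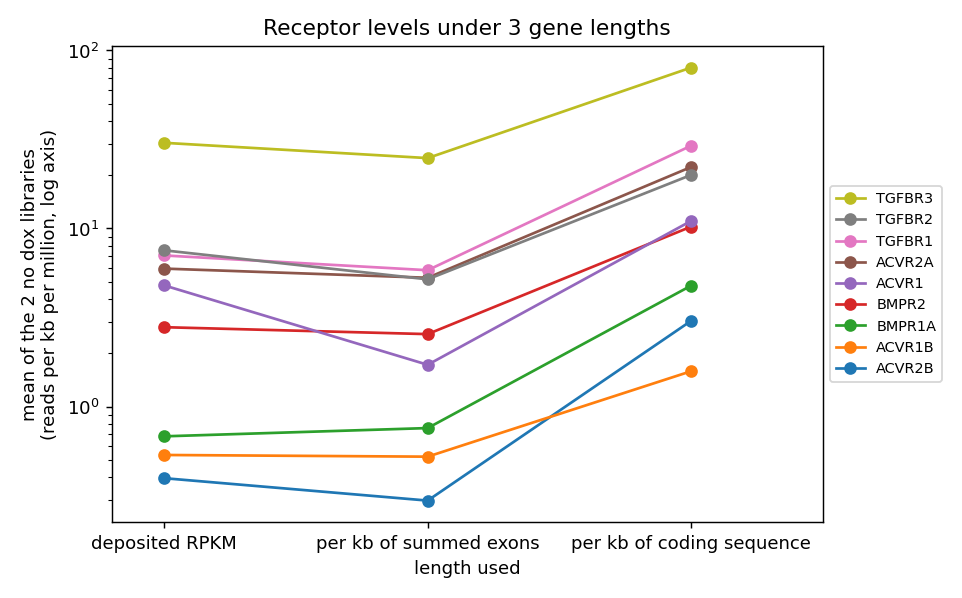
Mean level of 9 receptor genes in the 2 no dox libraries (y axis, log scale) from the deposited RPKM and after dividing the reads by summed exon length or by coding length. ENG is omitted for its low level. The lines of ACVR1 and BMPR2 cross, whereas TGFBR3 stays on top, at 30.3 RPKM and 24.9 and 80.1 CPM per kilobase.

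Each receptor was also expressed as a share of its class, since type I and type II receptors act together. Of the summed type I RPKM, TGFBR1 took 54.0% and 53.8% without Dox and 58.5% and 50.4% with Dox. ACVR1 took 36.1% and 37.1% without Dox and 34.6% and 38.5% with Dox. BMPR1A took 4.90% to 5.50% over the 4 libraries and ACVR1B 1.74% to 5.27%. Of the summed type II RPKM, TGFBR2 took 43.4% and 46.8% without Dox and 47.6% and 47.9% with Dox. ACVR2A took 35.8% and 35.6% without Dox and 33.0% and 31.5% with Dox. BMPR2 took 18.1% and 15.5% without Dox and 16.2% and 17.8% with Dox, and ACVR2B 1.77% to 2.74% over the 4 libraries. The mean share of BMPR2 was 16.8% ± 1.84 (SD, n = 2) in the no dox and 17.0% ± 1.12 (SD, n = 2) in the dox libraries, and that of ACVR1 was 36.6% ± 0.746 (SD, n = 2) and 36.6% ± 2.81 (SD, n = 2). Neither difference exceeded the spread between replicates (exact two-sided permutation test, p = 1 for BMPR2 and p = 1 for ACVR1). With 2 libraries against 2 this test cannot give a p below 0.333, a value reached by ACVR2A, TGFBR2 and AMHR2 among the 12 shares, all of which had an adjusted p of 1. By summed exon length the share of ACVR1 was 19.4%, and by coding length 23.6%, while that of BMPR2 was 19.3% by summed exon length.

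**Figure D3:**
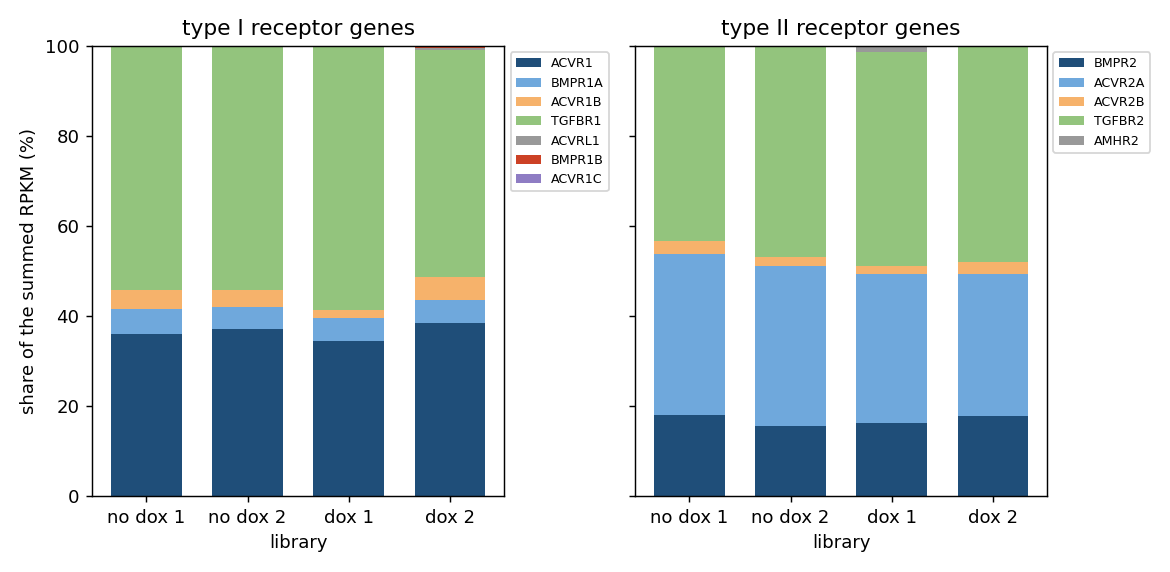
Share of each gene in the summed RPKM of the type I receptors (left) and of the type II receptors (right), in percent (y axis), for each library. TGFBR1 and ACVR1 fill most of the type I bars, TGFBR2 and ACVR2A most of the type II bars, and BMPR2 holds 15.5% to 18.1%.

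Dox was then compared with no Dox to ask whether receptor transcripts change when MIB1 is disrupted. A call required at least a 2-fold change and an adjusted p of 0.05 or less in limma, over all 16181 genes tested. Of the 10 members, 9 passed the filter on low counts and 0 were called, where 0.0371% of all genes tested were called. Of the 9, 0 had an unadjusted p under 0.05 in limma, against 9.28% of all genes tested, and 0 were called by edgeR or DESeq2, which called 0.0371% and 0.0309% of all genes. At these shares fewer than 1 of 9 genes would be counted, so the counts of 0 are near the background. ACVR1B had the lowest adjusted p of the 9, 0.798 in limma. Of the 9 log2 fold changes, 5 were above 0 and 4 below, and 49.9% of all genes tested were above 0. The median was 0.02 over the 9 members and 0.00 over all genes tested.

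The 95% intervals give the size of change that these samples can speak to. For BMPR2 the interval of the log2 fold change ran from -0.26 to 0.35, that is from 0.836 to 1.27 times the no Dox level. For ACVR1 it ran from -0.33 to 0.38, or 0.795 to 1.30 times. TGFBR1 had the narrowest interval, from -0.23 to 0.30 around 0.04. TGFBR2, with a log2 fold change of 0.11, had an interval from -0.19 to 0.41, and TGFBR3, at 0.08, one from -0.24 to 0.39. ACVR2A had the value -0.12 with an interval from -0.41 to 0.17, BMPR1A -0.04 with one from -0.47 to 0.39, and ACVR2B -0.17 with one from -0.76 to 0.42. The interval lay inside a 2-fold change in either direction for 8 of the 9 members, which held for 77.4% of all genes tested and for 95.4% of those with a mean count of at least 50. ACVR1B was the exception, with a log2 fold change of -0.44 ± 0.43 (SE) and an interval from -1.36 to 0.47, which extends past a 2-fold decrease. Without dox replicate 1 the log2 fold change of ACVR1B was 0.46, and without dox replicate 2 it was -1.39.

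**Figure D4:**
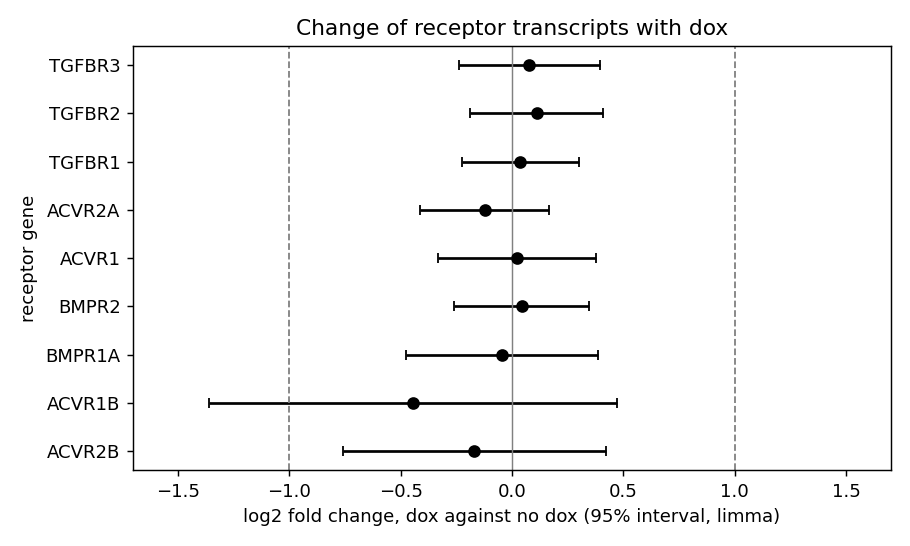
Log2 fold change of 9 receptor genes, dox against no dox (points), with 95% intervals from limma (bars). Dashed lines mark a 2-fold change. All intervals cross 0, and that of ACVR1B, which runs to -1.36, crosses a dashed line.

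The Dox replicates differed from each other in the same direction for most members. On the quantile-normalized log2 CPM scale, 8 of the 9 members were higher in dox replicate 2 than in dox replicate 1, where 50.7% of all genes tested were. The gap, replicate 2 minus replicate 1, was 1.86 for ACVR1B, 0.74 for ACVR2B, 0.47 for TGFBR3, 0.35 for ACVR1 and 0.28 for BMPR2, and -0.02 for TGFBR1. Its median was 0.28 over the 9 members and 0.01 over all genes tested. The signs of the changes depended on these libraries for all members tested except ACVR2A, TGFBR1 and TGFBR2. Without dox replicate 1, 8 of the 9 members lay above 0, with a median of 0.19, and without dox replicate 2, 7 of the 9 lay below 0, with a median of -0.15. MIB1 itself was lower in dox replicate 2, at 59 reads against 90 in dox replicate 1, with a gap of -0.82. Between the no dox replicates, the gap of the members, replicate 2 minus replicate 1, ran from -0.28 for ACVR2B to 0.32 for TGFBR3. The part of MIB1 or of other differences between the Dox replicates in the gaps of the members was not tested.

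Genes that act next to the receptors were compared in the same way, from 4 lists. Of 8 co-receptors and membrane-bound modifiers, 6 were tested, 4 of these lay above 0 and 0 were called, with a median log2 fold change of 0.17, which was 0.07 without dox replicate 2. The most abundant were BAMBI, a pseudoreceptor without a kinase domain, at 7.36 ± 0.435 RPKM without Dox and 8.74 ± 0.896 with Dox (SD, n = 2 each), and CD109, a TGF-β-binding membrane protein, at 7.41 ± 0.947 and 7.14 ± 0.0977 RPKM (SD, n = 2 each). The BMP co-receptors RGMB (0.86) and RGMA (-0.93) had the highest and the lowest log2 fold change of this list, at 7 to 16 and 7 to 25 reads, and with 1 library left out these ranged from 0.46 to 1.27 and from -1.37 to -0.53. All 23 genes listed as regulators of receptor traffic, stability or activity were tested, with 10 above 0, a median of -0.01 and 0 called. SMAD6, an inhibitor of BMP type I receptor signaling, had the highest log2 fold change among them, 0.77 (SE 0.34, adjusted p = 0.503 in limma), and ZFYVE9 (SARA), which brings SMAD2 and SMAD3 to the TGF-β receptor, the lowest, -0.26 (SE 0.18, adjusted p = 0.705 in limma). Without no dox replicate 1 SMAD6 had 0.45, and without no dox replicates 1 and 2 in turn ZFYVE9 had -0.45 and -0.08. The most abundant regulators were PPP1CA, a catalytic subunit of protein phosphatase 1, with a log2 fold change of -0.01, and STRAP, a receptor-associated protein, with 0.04.

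The 6 SMADs, which carry the receptor signal to the nucleus, included the only called gene of these lists, SMAD9. Its read counts were 20 and 24 (no Dox) against 60 and 96 (Dox), and its log2 fold change was 2.20 with a 95% interval from 1.45 to 2.95 (limma, adjusted p = 0.0265). SMAD9 was not called without the filter on low counts, on the log2 RPKM scales or with 1 library left out, where its log2 fold change lay between 0.63 and 2.46. No receptor gene was called in the same fit. SMAD1 and SMAD4 had the highest RPKM of the 6 over the 4 libraries, but SMAD4 (7.44 RPKM without and 6.97 with Dox) and SMAD2 (6.86 and 6.98 RPKM) lay close together, and the gene models behind the RPKM of SMAD1 and SMAD4 were 0.317 and 0.437 times the GENCODE exon length on the scale given above. SMAD1, a BMP receptor SMAD, had a log2 fold change of 0.25 (SE 0.15, adjusted p = 0.665 in limma), and SMAD4, the common partner, one of -0.06. Without no dox replicates 1 and 2 in turn SMAD1 had 0.10 and 0.39. SMAD3 had the lowest, -0.13. Of 20 ligands, 9 were tested and 8 of these lay below 0, with a median of -0.26, and 0 were called. Without no dox replicate 2 or dox replicate 1, 6 of the 9 ligands lay below 0. BMP6 was the most abundant ligand at 12.9 ± 1.40 RPKM without Dox and 11.1 ± 1.40 with Dox (SD, n = 2 each), followed by TGFB1 at 9.30 ± 0.939 and 9.23 ± 0.555 RPKM (SD, n = 2 each). BMP8B had the lowest log2 fold change of the ligands, -1.41 (SE 0.52, adjusted p = 0.414 in limma), at 5 to 30 reads, and TGFB1 the highest, 0.01. Without dox replicate 2 BMP8B had -0.74.

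**Figure D5:**
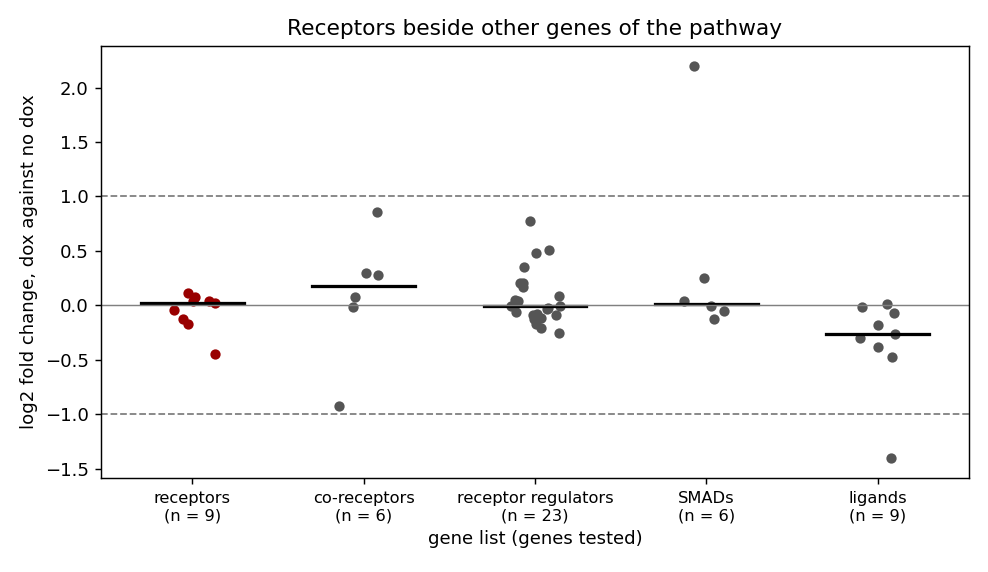
Log2 fold change, dox against no dox (y axis), of every tested gene of the receptor list and of the 4 further lists. Each point is a gene, thick lines are list medians and dashed lines mark a 2-fold change. The receptors lie between -0.44 and 0.11, and SMAD9, at 2.20, stands apart from the other SMADs.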

How the data were processed

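RNA-seq was performed on MIB1-iKO NCIH838 cells at day 3, with 2 samples per group. According to the study's methods, reads were aligned to GRCh38 with GSNAP and counted over exons with HTSeqGenie. The authors deposited raw counts, 1 whole number per gene and library. The deposited RPKM values divide reads by gene length and depth, with a further scaling per library: relative to no dox replicate 1, the scales of no dox replicate 2 and dox replicates 1 and 2 were 0.932, 0.649 and 0.771, against 0.869, 0.653 and 0.699 for the totals. The methods name a RefSeq annotation although the identifiers are Ensembl identifiers. Kits for low and for regular input are given, not which of them applied here, and the strand setting of the counting is not given in the sources used here. Fold changes and p-values were not among the columns used, and 0 columns of per-sample values were left unused.

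Symbols were matched through GENCODE release 44 (57532 of 58302 identifiers). Following the study's methods, counts were scaled by library total, quantile-normalized, weighted with voom and fitted with limma 3.58.1 in R 4.3.3. The filter on low counts, filterByExpr (16181 genes kept), is not part of those methods and was added here; without it 0 genes were called. Benjamini-Hochberg adjustment, over all genes tested, was applied. The fit was run on simulated counts with the same dispersion for every gene and with independent libraries. This checks the code and does not show that the calls or intervals hold for the real libraries. Levels, order and shares came from RPKM. Members and lists were chosen with earlier results of these data known. Besides MIB1, the receptors and markers, the genes named are, of each pathway list, those called, those with the highest and the lowest log2 fold change and the 2 with the highest RPKM. Alternatives were edgeR 4.0.16 (quasi-likelihood, TMM), DESeq2 1.42.0, voom with TMM or library size only, no count filter, a mean count of at least 50, a replicate block, limma on log2 RPKM with a pseudocount of 0.1 or 1, other thresholds, other gene lengths and each library left out. Counting intervals and limits cover counting error only, since reads amplified by PCR are not independent molecules.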

Additional observations from a re-analysis of the deposited data

How the results depend on the processing

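No member was called under any of the alternatives that kept all 4 libraries. Without a count filter and on both log2 RPKM scales 0 of all genes tested were called, so 0 members called there says nothing about the receptors. In the 4 fits with 1 library left out, the lone sample is assumed to vary like the other group. MIB1 lost its call in these 4 fits, so they cannot decide whether a member changed. The number of members whose 95% interval lay inside a 2-fold change ranged from 7 to 9 of the 9 tested. The share of all genes tested with such an interval also moved with the setting. It was 41.7% without a count filter, where 8 members had one, and 98.8% on log2(RPKM + 1), where 9 did. The median of the 9 log2 fold changes ranged from -0.15 to 0.19 with 1 library left out.

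ACVR1 had -0.0079 on log2(RPKM + 0.1), -0.0054 on log2(RPKM + 1) and -0.15 without dox replicate 2. With 1 library left out the log2 fold change ranged from -0.10 to 0.18 for BMPR2, from -0.15 to 0.19 for ACVR1, from -0.12 to 0.04 for BMPR1A, from -1.39 to 0.46 for ACVR1B, from -0.55 to 0.19 for ACVR2B, from -0.02 to 0.24 for TGFBR2 and from -0.16 to 0.32 for TGFBR3. Without no dox replicate 1, BMPR1A had 0.0372 and TGFBR2 -0.0234. ACVR2A and TGFBR1 kept their sign in every alternative run. MIB1 kept its sign but not its call without a count filter (-2.58, adjusted p = 0.613), on log2(RPKM + 0.1) (-2.33, adjusted p = 0.108), on log2(RPKM + 1) (-1.34, adjusted p = 0.0962; limma in each), and with 1 library left out (-2.998 to -2.16); the cause was not tested. SMAD9 kept its sign throughout and lost its call in the same fits, with 1.75 and 0.63 on the log2 RPKM scales and 1.95 to 2.46 with 1 library left out. Of the other pathway genes named, CD109, PPP1CA, STRAP, SMAD3, SMAD4 and TGFB1 turned sign in at least 1 alternative. TGFB1 had -0.0041 in edgeR, -0.0087 on log2(RPKM + 0.1), -0.0081 on log2(RPKM + 1) and -0.0541 without dox replicate 2. STRAP had -0.000675 on log2(RPKM + 0.1), -0.000676 on log2(RPKM + 1) and -0.0554 without dox replicate 2. With 1 library left out, the range was -0.13 to 0.11 for CD109, -0.0737 to 0.0509 for PPP1CA, -0.36 to 0.12 for SMAD3, -0.18 to 0.0614 for SMAD4 and -0.0798 to 0.0958 for TGFB1. Values that kept their sign but moved by over 1.5 times with 1 library left out ranged from 0.45 to 1.05 for SMAD6, from -0.45 to -0.08 for ZFYVE9, from 0.10 to 0.39 for SMAD1, from 0.46 to 1.27 for RGMB, from -1.37 to -0.53 for RGMA, from 0.17 to 0.38 for BAMBI, from -0.31 to -0.06 for BMP6 and from -2.01 to -0.74 for BMP8B.

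Over all genes, 6 were called, against 11 with no fold threshold, 0 without a count filter (2092 at an unadjusted p under 0.05), 0 on log2(RPKM + 0.1) (1442), 0 on log2(RPKM + 1) (1438), and 0 with any 1 library left out (833 to 1042). The groups share replicate numbers, whose meaning no label gives. The deviations of same-numbered libraries had a Pearson r of 0.134 across genes. The chi-square per degree of freedom was 8.26 and 8.18 between same-numbered libraries across the groups. It was 9.34 and 13.1 within groups, and 15.8 and 15.9 between libraries of unlike number in different groups. The fit behind the results above took no account of these numbers. With the replicate block 78 genes were called and 0 members. In that fit 3276 genes and 0 members had an unadjusted p under 0.05, against 1501 genes and 0 members without the block (limma in each). The interval of BMPR2 with the block ran from -0.16 to 0.26.

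By summed exon length, 5 of 10 members kept their rank, the share of ACVR1 was 19.4% and that of BMPR2 19.3%. By coding length, an alternative chosen after seeing the data that took the place of a protein table, 5 kept their rank and the share of ACVR1 was 23.6%; the values follow from the lengths alone. Leaving out libraries for the counts over the pathway lists was also chosen after seeing the data. ENG, ACVRL1, BMPR1B, ACVR1C and AMHR2 were below the depth needed for the test.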
